A study of Homo sapiens with 10 samples.

Results

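A set of 10 genes of the mesenchymal programme was examined in SH-SY5Y, a human neuroblastoma cell line of noradrenergic character. They comprise the 6 transcription factors SNAI1, SNAI2, TWIST1, ZEB1, ZEB2 and PRRX1 and the 4 markers CD44, CNN2, CNN3 and TAGLN2. They were taken by name, with earlier results of these data known. Each was read by the probe set whose platform annotation gives that symbol alone. All 10 had exactly 1 such probe set, out of 14232 genes named by a single symbol and 22011 probe sets in all. RNA was measured on Affymetrix exon arrays in cells stably transfected with SOD1(G93A), a mutant superoxide dismutase found in familial amyotrophic lateral sclerosis (ALS), and in cells stably transfected with wild-type SOD1, with 5 arrays per group. Both lines thus carried a SOD1 construct, and both were kept in Geneticin (G418). No untransfected cells enter the comparison. The labels do not say whether a line was a clone or a pool, which promoter drove the construct, or whether the 5 samples of a group were separate cultures, so p-values here reflect how far these samples scatter, and that scatter may be technical. The construct and any other difference between the lines cannot be told apart.

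Neuroblastoma cells occur in a neuroblastic, noradrenergic state and in a flat, substrate-adherent (S-type) state that resembles mesenchyme or precursor cells of the neural crest. Snail, Twist and ZEB proteins bind E-box DNA and drive the epithelial-to-mesenchymal transition in many tissues, and the same factors act when neural crest cells leave the neural tube. PRRX1 is a homeobox factor of limb and head mesenchyme and of mesenchymal neuroblastoma cells. CD44 is the cell-surface receptor for hyaluronan, and calponins and transgelins bind actin filaments.

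Values are log2 intensities as the authors deposited them, processed by robust multi-array averaging (RMA). A fold change is the mean of the SOD1(G93A) arrays less that of the wild-type SOD1 arrays on that scale, from limma's moderated test across all probe sets. The threshold for a call is a Benjamini-Hochberg adjusted p of 0.05 over the 22011 probe sets, the false discovery rate that the labels state. Samples are given by the number in their titles, always in the order 3, 9, 12, 15 and 18 for SOD1(G93A) and 2, 8, 11, 14 and 17 for wild-type SOD1. SOD1 itself averaged 9.55 ± 0.09 in SOD1(G93A) and 9.78 ± 0.13 in wild-type SOD1 arrays (SD, n = 5 each) and was not called (limma, adjusted p = 0.107). Array medians lay between 6.26 and 6.34 and lower quartiles between 3.84 and 3.89. A gene below its array's lower quartile is dim, and its differences are compressed. Among the noradrenergic markers that identify the cells, 7 of 11 were measured, with a mean level of 9.31 to 9.53 in SOD1(G93A) arrays and 8.92 to 9.13 in wild-type SOD1 arrays. Of these 7, CHGB, CHGA and DDC rose by 1.40 (SE 0.15), 1.06 (SE 0.12) and 0.28 (SE 0.06), and GATA3 fell by 0.38 (SE 0.07). That made 57.1% called, against 9.60% of all genes named by a single symbol. All lists here were chosen with earlier results of these data known, so such a share is a description and no test. The DDC call was lost without wild-type SOD1 sample 8, 11 or 17 (limma, adjusted p up to 0.0615).

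Of the 10 genes, 3 rose and 2 fell in the SOD1(G93A) line. SNAI1, CNN2 and CD44 rose, SNAI2 and ZEB2 fell, and TWIST1, ZEB1, PRRX1, CNN3 and TAGLN2 did not pass the threshold. Among all named genes 9.60% were called, 4.03% higher and 5.57% lower, and among all probe sets 7.46%, 3.24% and 4.23%. The groups did not overlap in those 5 called genes and overlapped in the other 5, and 11.4% of named genes and 8.88% of all probe sets had no overlap. Only SNAI2 also passed the labels' second threshold, a log2 fold change of 1 or more in size, which 1.18% of named genes and 0.872% of all probe sets passed. The median fold change of the 10 genes was 0.09, and that of all named genes was -0.0043. The 2 Snail factors moved in opposite directions. In bulk RNA, fewer cells of a type and less RNA per cell cannot be told apart.

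**Figure D1:**
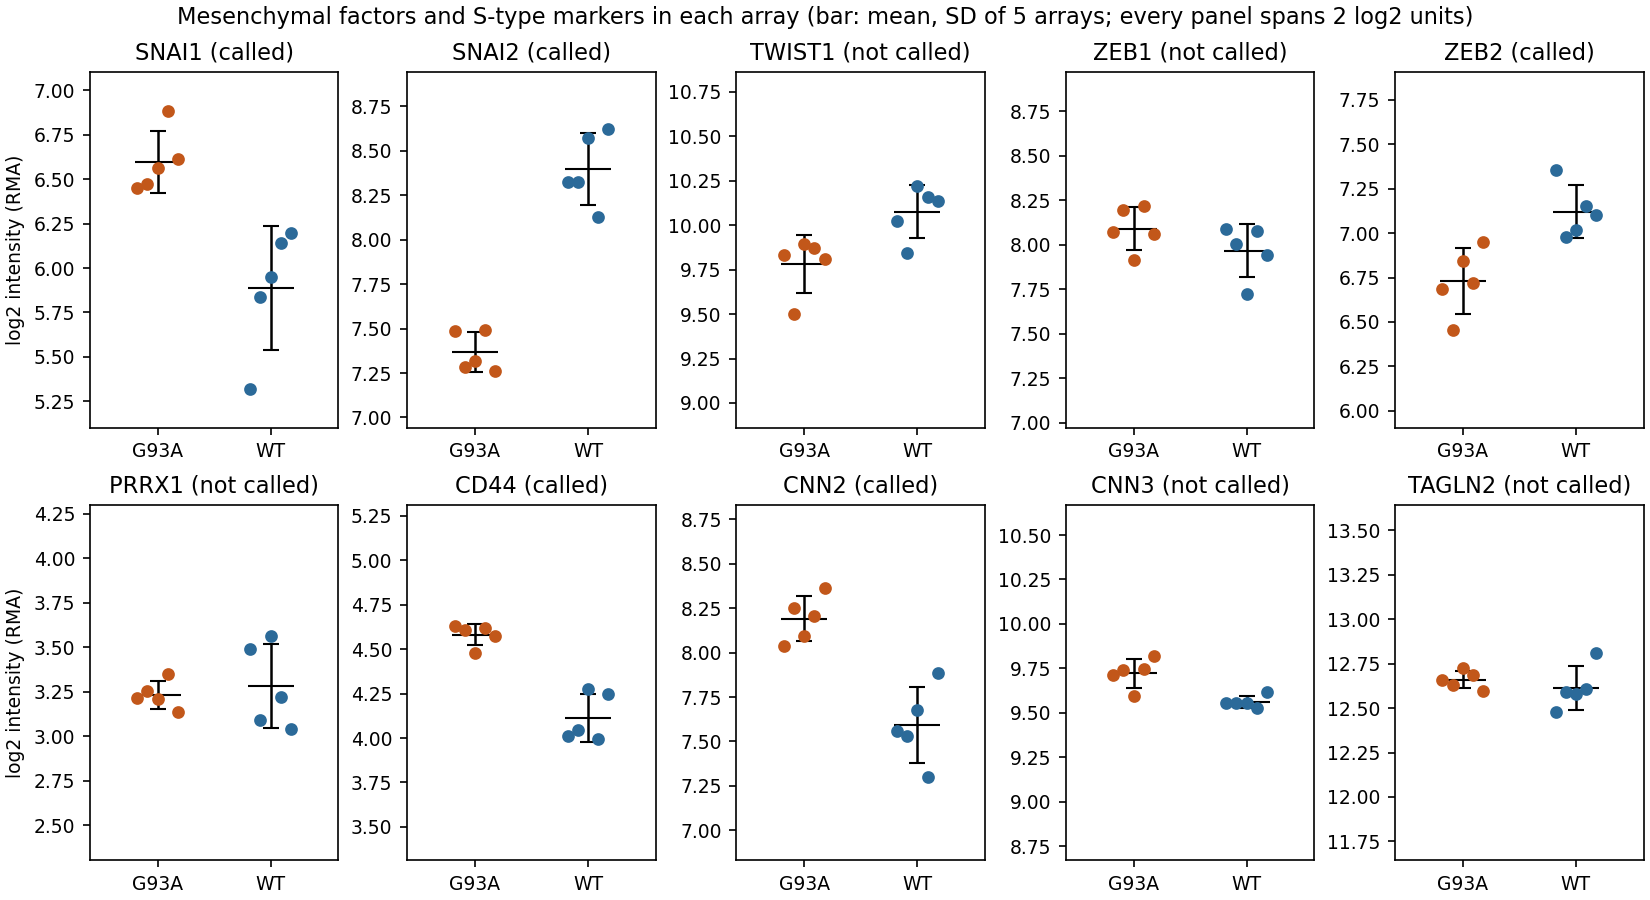
Log2 intensity (y axis) of each of the 10 genes in the 5 SOD1(G93A) arrays (left in each panel, orange) and the 5 wild-type SOD1 arrays (right, blue), with the mean and SD as black bars. The groups are separate for SNAI1, SNAI2, ZEB2, CD44 and CNN2 and overlap for TWIST1, ZEB1, PRRX1, CNN3 and TAGLN2; every panel spans the same range of 2 log2 units.

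Promoter sequences are shown for 2 related pairs in which 1 gene was called and the other was not. ZEB2 and ZEB1 encode E-box binding factors, and CNN2 and CNN3 encode actin-binding calponins. The sequences are the 250 bases before the gene's start that lies farthest upstream, from RefSeq on build GRCh38.p14, 5′ to 3′. Such a window was matched for 7 of the 10 genes. Capitals mark a CACCTG E-box, on either strand, to which Snail and ZEB proteins bind, or a CArG box, on either strand, to which serum response factor binds.
ZEB2, chr2:144520120-144520369, minus strand: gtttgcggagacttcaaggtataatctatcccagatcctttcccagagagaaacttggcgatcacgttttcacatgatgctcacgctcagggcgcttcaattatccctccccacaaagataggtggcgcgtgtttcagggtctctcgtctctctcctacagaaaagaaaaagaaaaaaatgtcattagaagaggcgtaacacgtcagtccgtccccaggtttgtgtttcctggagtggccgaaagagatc
ZEB1, chr10:31318167-31318416, plus strand: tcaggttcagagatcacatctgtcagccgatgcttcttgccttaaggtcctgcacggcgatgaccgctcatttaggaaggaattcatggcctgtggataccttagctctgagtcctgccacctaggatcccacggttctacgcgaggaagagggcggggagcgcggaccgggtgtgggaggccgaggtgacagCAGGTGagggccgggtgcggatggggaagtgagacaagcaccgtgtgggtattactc
CNN2, chr19:1026358-1026607, plus strand: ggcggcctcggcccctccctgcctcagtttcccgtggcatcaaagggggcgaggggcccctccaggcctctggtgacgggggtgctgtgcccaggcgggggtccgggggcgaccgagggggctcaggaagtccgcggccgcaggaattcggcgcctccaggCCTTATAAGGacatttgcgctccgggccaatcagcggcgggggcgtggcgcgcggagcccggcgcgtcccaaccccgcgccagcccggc
CNN3, chr1:94927111-94927360, minus strand: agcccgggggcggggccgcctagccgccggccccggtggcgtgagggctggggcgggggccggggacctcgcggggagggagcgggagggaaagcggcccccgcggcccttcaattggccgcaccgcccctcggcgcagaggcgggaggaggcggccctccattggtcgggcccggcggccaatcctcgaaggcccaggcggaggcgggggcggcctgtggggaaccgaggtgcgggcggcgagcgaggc
The ZEB1 window held 1 E-box, as its reverse complement CAGGTG, 57 to 52 bases before the start. The CNN2 window held 1 CArG box 89 to 80 bases before the start. No other match to either motif was found in the 7 windows. In the 27305 RefSeq windows, 17.5% held the E-box and 1.15% the CArG box. The 2 motifs do not overlap. A match in a window does not show that a protein binds there, and no match says only that these letters are absent from it.

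SNAI2 (Slug) is a zinc finger repressor that marks premigratory and migrating neural crest. Its level was 7.48, 7.28, 7.32, 7.49 and 7.26 in the SOD1(G93A) arrays, against 8.33, 8.33, 8.57, 8.13 and 8.62 in the wild-type SOD1 arrays. Every SOD1(G93A) array was lower than every wild-type SOD1 array, and the groups were 0.64 apart at their nearest. SNAI2 fell by 1.03 (SE 0.10, 95% interval -1.24 to -0.81), to 49.1% of the wild-type SOD1 level (limma, adjusted p = 7.33e-05). The call held without any 1 array (adjusted p up to 0.000394).

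SNAI1 (Snail) is the close relative that represses the E-cadherin gene in early epithelial-to-mesenchymal transitions. Its level was 6.45, 6.47, 6.57, 6.88 and 6.61 in the SOD1(G93A) arrays, against 5.32, 5.84, 5.95, 6.14 and 6.20 in the wild-type SOD1 arrays. All SOD1(G93A) arrays were higher, by at least 0.25, and wild-type SOD1 sample 2 was the lowest of the 10. SNAI1 rose by 0.71 (SE 0.16, 95% interval 0.36 to 1.05), or 1.63-fold (limma, adjusted p = 0.0191). Without wild-type SOD1 sample 2 the rise was 0.56 (adjusted p = 0.0118). The call was lost without SOD1(G93A) sample 15 (0.63, adjusted p = 0.0513) and in an unmoderated model of the same values (adjusted p = 0.0525).

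The size of the unequal change of the Snail genes was measured. Within each array, SNAI2 minus SNAI1 was 0.77 ± 0.17 in SOD1(G93A) and 2.51 ± 0.37 in wild-type SOD1 arrays (SD, n = 5 each; exact permutation test, 2-sided, p = 0.00794, 0.00992 adjusted over 5 pairs of related genes). The difference of the 2 changes was -1.73 (95% interval -2.15 to -1.32). A p of 0.00794 is the smallest that 5 against 5 arrays can give. For this pair that p was fixed in advance, as both genes changed without overlap and in opposite directions. It is no evidence beyond those 2 changes.

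ZEB2 and ZEB1 are zinc finger homeodomain repressors with nearly the same DNA site. The ZEB2 level was 6.69, 6.45, 6.84, 6.72 and 6.95 in the SOD1(G93A) arrays, against 7.36, 6.98, 7.02, 7.15 and 7.10 in the wild-type SOD1 arrays. The groups did not overlap, but the highest SOD1(G93A) array, sample 18, was only 0.03 below the lowest wild-type SOD1 array, sample 8. ZEB2 fell by 0.39 (SE 0.10, 95% interval -0.62 to -0.17), to 76.3% of the wild-type SOD1 level (limma, adjusted p = 0.0415). That call is close to the threshold. It held without SOD1(G93A) sample 18 (0.0247) or wild-type SOD1 sample 8 (0.0474) and was lost without any 1 of the other 8 arrays (adjusted p up to 0.0895).

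The ZEB1 level was 8.07, 8.19, 7.91, 8.22 and 8.06 in the SOD1(G93A) arrays, against 8.09, 8.01, 7.72, 8.08 and 7.94 in the wild-type SOD1 arrays. The groups overlapped, with SOD1(G93A) sample 15 the highest array and wild-type SOD1 sample 11 the lowest. ZEB1 differed by 0.12 (SE 0.08, 95% interval -0.06 to 0.31; limma, adjusted p = 0.508). The ZEB1 minus ZEB2 difference was 1.36 ± 0.28 in SOD1(G93A) and 0.85 ± 0.13 in wild-type SOD1 arrays (SD, n = 5 each; exact permutation p = 0.00794, 0.00992 adjusted over the 5 pairs), so the ZEB genes changed unequally, by 0.51 (95% interval 0.20 to 0.83).

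TWIST1 is a basic helix-loop-helix (bHLH) factor of cranial mesenchyme and neural crest, and it acts as a dimer with E proteins. Its level was 9.83, 9.50, 9.90, 9.87 and 9.81 in the SOD1(G93A) arrays, against 10.02, 9.84, 10.22, 10.16 and 10.14 in the wild-type SOD1 arrays. Among the SOD1(G93A) arrays 4 lay between 9.81 and 9.90 and sample 9 lay below them, and the overlap came from wild-type SOD1 sample 8. The difference was -0.29 (SE 0.09, 95% interval -0.50 to -0.08; limma, adjusted p = 0.103), which did not pass the threshold. Taken alone, its exact permutation p was 0.0238. Without SOD1(G93A) sample 9 the difference was -0.22, and without wild-type SOD1 sample 8 it was -0.35 and was called (adjusted p = 0.0489).

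PRRX1 was dim in every array. Its level was 3.21, 3.25, 3.21, 3.35 and 3.14 in the SOD1(G93A) arrays, against 3.49, 3.09, 3.57, 3.22 and 3.04 in the wild-type SOD1 arrays, all below the lower quartile. The spread was wider among the wild-type SOD1 arrays (SD 0.24) than among the SOD1(G93A) arrays (SD 0.08). The difference was -0.05 (SE 0.11, 95% interval -0.28 to 0.18; limma, adjusted p = 0.880). A change of a gene at this level may not be detectable.

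CD44 also lay low, just above the lower quartile. Its level was 4.63, 4.61, 4.48, 4.62 and 4.57 in the SOD1(G93A) arrays, against 4.01, 4.05, 4.27, 3.997 and 4.25 in the wild-type SOD1 arrays. The SOD1(G93A) arrays were close together, and the lowest of them, sample 12, was 0.21 above the highest wild-type SOD1 array, sample 11. CD44 rose by 0.47 (SE 0.07, 95% interval 0.31 to 0.62), or 1.38-fold (limma, adjusted p = 0.00180). The call held without any 1 array (adjusted p up to 0.00675). At levels this near the lower quartile, a fold may understate the change.

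CNN2 is a calponin of non-muscle and smooth muscle cells that binds actin. Its level was 8.04, 8.25, 8.09, 8.20 and 8.36 in the SOD1(G93A) arrays, against 7.56, 7.53, 7.68, 7.30 and 7.89 in the wild-type SOD1 arrays. All SOD1(G93A) arrays were higher, by at least 0.15, and in both groups the highest array was the one numbered 17 or 18. CNN2 rose by 0.60 (SE 0.10, 95% interval 0.37 to 0.83), or 1.52-fold (limma, adjusted p = 0.00470). The call held without any 1 array (adjusted p up to 0.0152). RefSeq names 11 pseudogenes of CNN2, 2 of TAGLN2 and 1 each of SNAI1, ZEB2 and CNN3. Which probes match them was not examined.

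CNN3, the acidic calponin of brain and many other tissues, was bright and varied little. Its level was 9.71, 9.74, 9.60, 9.75 and 9.82 in the SOD1(G93A) arrays, against 9.55, 9.56, 9.56, 9.53 and 9.62 in the wild-type SOD1 arrays. Only SOD1(G93A) sample 12 fell within the wild-type SOD1 range. The difference was 0.16 (SE 0.05, 95% interval 0.04 to 0.28; limma, adjusted p = 0.112) and did not pass the threshold. Taken alone, its exact permutation p was 0.0159. Without SOD1(G93A) sample 12 it was 0.19 and was called (adjusted p = 0.0474). Quantile normalization of the deposited values also gave a call (0.18, adjusted p = 0.0349), as did the unmoderated model (adjusted p = 0.0497).

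TAGLN2 (transgelin 2) is an actin-bundling protein of many cell types. Its level was 12.66, 12.63, 12.73, 12.69 and 12.60 in the SOD1(G93A) arrays, against 12.48, 12.59, 12.58, 12.61 and 12.81 in the wild-type SOD1 arrays. The SOD1(G93A) values lay within the wild-type SOD1 range, whose lowest and highest arrays were samples 2 and 17. The difference was 0.05 (SE 0.07, 95% interval -0.10 to 0.19; limma, adjusted p = 0.794).

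Among the actin-binding genes, CNN2 moved apart from both of its relatives. CNN2 minus CNN3 was -1.53 ± 0.08 in SOD1(G93A) and -1.97 ± 0.18 in wild-type SOD1 arrays (SD, n = 5 each; exact permutation p = 0.00794, 0.00992 adjusted over the 5 pairs), a difference of 0.44 (95% interval 0.23 to 0.65). CNN2 minus TAGLN2 was -4.47 ± 0.17 and -5.02 ± 0.17 in the same order of groups (exact permutation p = 0.00794, 0.00992 adjusted), a difference of 0.55 (95% interval 0.31 to 0.80). CNN3 minus TAGLN2 differed by 0.11 (95% interval -0.05 to 0.28; exact permutation p = 0.151, also adjusted). This last pair was called without SOD1(G93A) sample 12 (0.16, adjusted p = 0.0317).

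**Figure D2:**
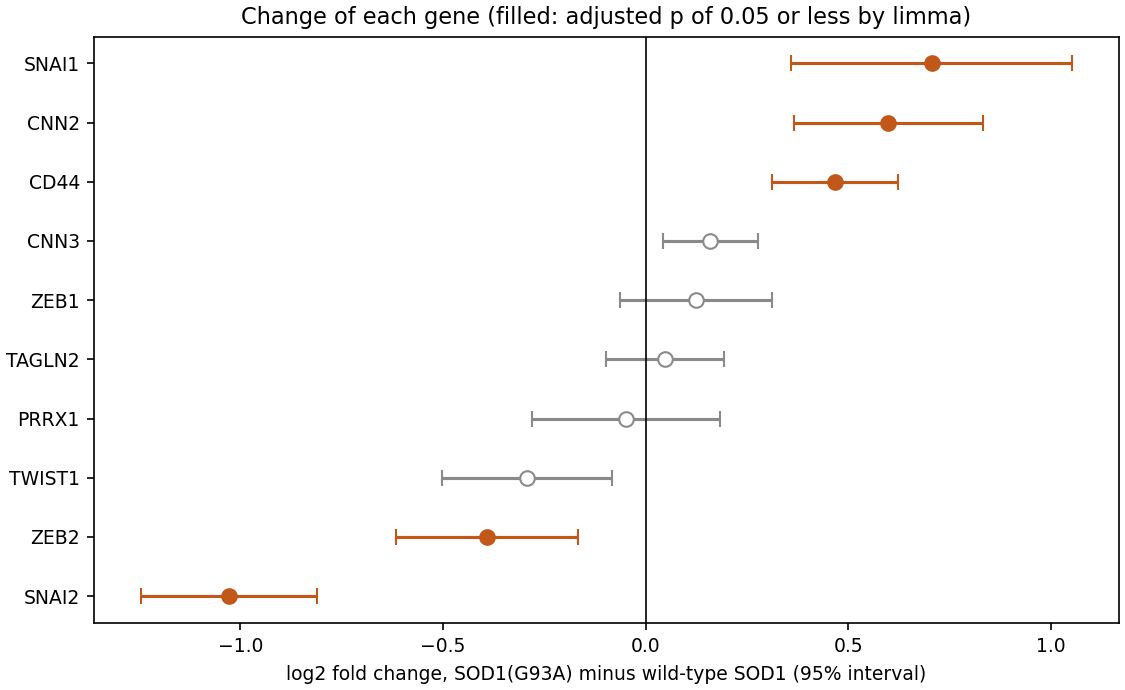
Log2 fold change, SOD1(G93A) minus wild-type SOD1 (x axis), of each of the 10 genes with its 95% interval from limma. Filled orange points passed an adjusted p of 0.05 and open grey points did not: SNAI1, CNN2 and CD44 lie right of 0, ZEB2 and SNAI2 left of it, and the intervals of CNN3 and TWIST1 exclude 0 without passing the adjustment.

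**Figure D3:**
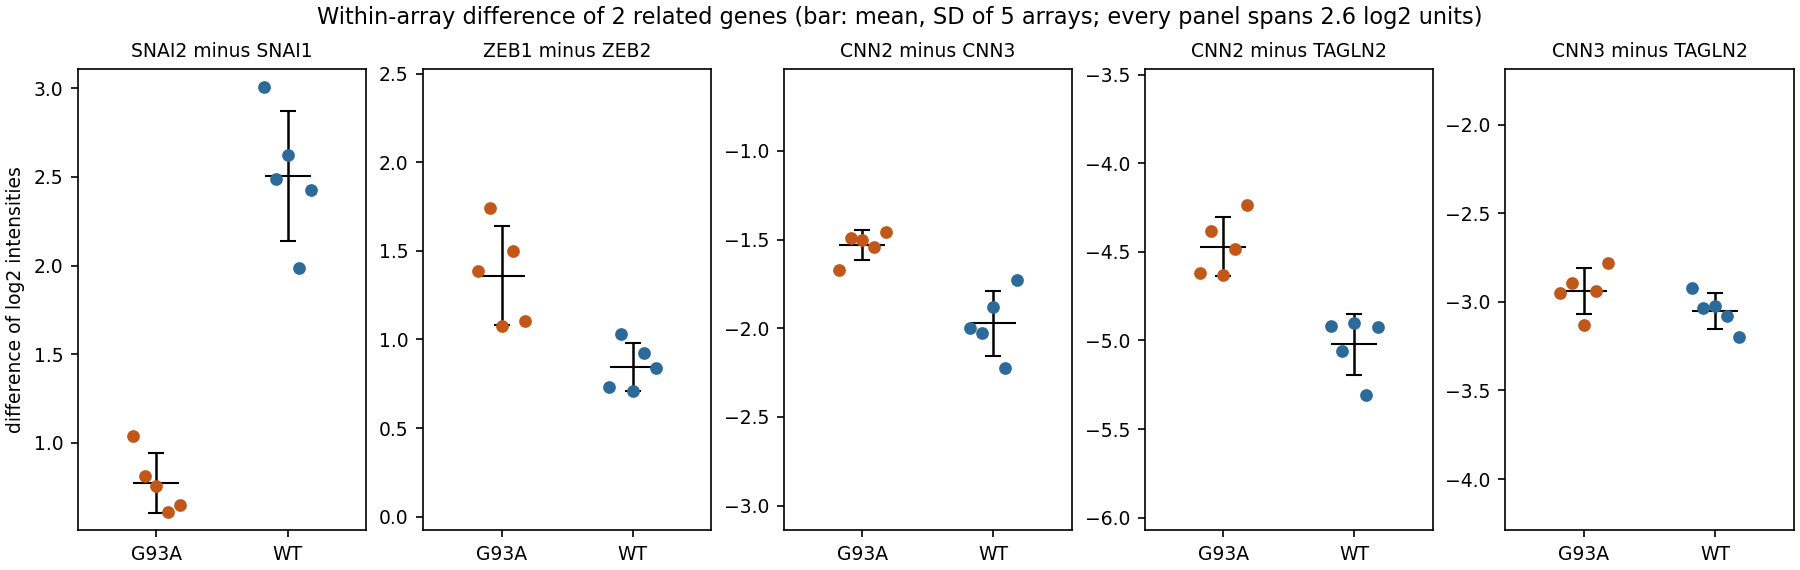
Within-array difference of the log2 intensities of 2 related genes (y axis) in the 5 SOD1(G93A) arrays (left, orange) and the 5 wild-type SOD1 arrays (right, blue), with mean and SD. The groups are separate in the first 4 panels and overlap for CNN3 minus TAGLN2; the height of a panel's values depends on the 2 probe sets and has no meaning of its own.

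The 10 genes lie on chromosomes 1, 2, 7, 8, 10, 11, 19 and 20, with PRRX1, CNN3 and TAGLN2 on chromosome 1. Among the 10 nearest measured genes of SNAI2, 5 on each side in RefSeq order, 0 were called lower and 1 higher by limma. For ZEB2 1 of 10 neighbours was called lower, for SNAI1 0 were called higher and 1 lower, for CD44 0 were called higher and 2 lower, and for CNN2 0 were called in either direction. Of the 5 called genes, ZEB2 alone had a neighbour, QTMAN, called in its own direction, and QTMAN is named after its value was seen.

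The other genes of the pathway were taken from 10 lists chosen by role. They held 191 genes, of which 158 were measured, and 10 rose and 15 fell (15.8% called, against 9.60% of named genes). As the lists were chosen with earlier results of these data known, a share above that of all genes may come from the choice. Genes not measured had no probe set with that symbol alone and are not analysed here. Counts at an unadjusted p under 0.05 are given below without the share over all genes, so they show no excess. Few close relatives of the 10 genes were measured, and those were not called. Measured were 3 of 8 relatives of the Snail, Twist, ZEB and PRRX genes and 2 of 3 of the calponins and transgelins. SNAI3, SCRT1, SCRT2, TWIST2, HAND2 and TAGLN were not measured. Of PRRX2, HAND1 and TCF21, 0 were called by limma or the unmoderated model (1 had an unadjusted p under 0.05), and PRRX2 differed by 0.12 (SE 0.09). CNN1, the smooth muscle calponin, differed by -0.01 (SE 0.07) and TAGLN3, the neuronal transgelin, by -0.21 (SE 0.07; limma, adjusted p = 0.124).

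Of the ID genes, ID2, ID3 and ID4 fell and ID1 was not called. ID proteins pair with E proteins and keep Twist-type factors from binding DNA. Of 7 bHLH partners and inhibitors, 3 fell and 0 rose by limma (2 and 0 in the unmoderated model, with 4 at an unadjusted p under 0.05), and all 3 were ID genes. ID4 averaged 5.47 ± 0.28 in SOD1(G93A) and 6.80 ± 0.24 in wild-type SOD1 arrays (SD, n = 5 each), a fall of 1.33 (SE 0.15). ID2 averaged 10.55 ± 0.23 and 11.53 ± 0.04 in the same order of groups, a fall of 0.98 (SE 0.10). ID3 fell by 0.53 (SE 0.13) with overlapping groups. Leaving out 1 array ended the ID3 call for 7 of the 10 arrays (limma, adjusted p up to 0.0755). The E proteins TCF3, TCF4 and TCF12, the partners of TWIST1, differed by -0.13, -0.03 and -0.13 and were not called (limma, adjusted p = 0.305, 0.891 and 0.350). The share called was 42.9%, against 9.60% of named genes, and the median fold change of the 7 genes was -0.28.

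Of 20 measured corepressors and turnover factors of Snail and ZEB, 2 fell and 0 rose by limma (1 and 0 in the unmoderated model, 5 at an unadjusted p under 0.05). KDM1A, the histone demethylase that Snail recruits, fell by 0.32 (SE 0.08), and EZH2, the histone methyltransferase of a Polycomb complex, by 0.20 (SE 0.05). Leaving out 1 array ended the KDM1A call for 8 arrays and the EZH2 call for 9 (limma, adjusted p up to 0.100 and 0.0978). CTBP1, a corepressor of ZEB proteins, differed by -0.15 (SE 0.07) and was not called. The share called was 10.0%, near the 9.60% of all named genes.

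Epithelial genes include targets that Snail and ZEB repress, and 7 of the 25 measured were below the lower quartile in both groups. By limma 3 fell and 0 rose (2 and 0 in the unmoderated model, 7 at an unadjusted p under 0.05), a share of 12.0%. CDH1, the E-cadherin gene, was below the lower quartile in both groups, at 3.00 ± 0.05 in SOD1(G93A) and 3.10 ± 0.15 in wild-type SOD1 arrays (SD, n = 5 each), and was not called. GRHL1, a Grainyhead factor, fell by 0.67 (SE 0.08). ESRP1, the epithelial splicing factor that sets the exons of CD44, fell by 0.52 (SE 0.08) while dim in both groups, at 3.00 ± 0.14 in SOD1(G93A) against 3.52 ± 0.12 in wild-type SOD1 arrays. JUP, the junction protein plakoglobin, fell by 0.30 (SE 0.08), and leaving out 1 array ended that call for 8 arrays (limma, adjusted p up to 0.0967).

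Of 30 measured mesenchymal transcription factors other than the 6 above, 2 rose and 3 fell (16.7% called; median -0.06). YAP1, the Hippo pathway coactivator, rose by 0.66 (SE 0.07) and NR3C1, the glucocorticoid receptor, by 0.30 (SE 0.07). ETS1 and ETS2, ETS-family factors, fell by 0.49 (SE 0.08) and 0.38 (SE 0.06). GLI2, a Hedgehog pathway factor, fell by 0.22 (SE 0.06) and was chosen after its value was seen. The NR3C1 call was lost without SOD1(G93A) sample 9 or 18 or wild-type SOD1 sample 2, 8 or 17 (limma, adjusted p up to 0.0674), and leaving out 1 array ended that of GLI2 for 8 arrays (up to 0.119). SRF, serum response factor, which binds CArG boxes, differed by -0.20 (SE 0.09), and its coactivator gene MRTFA by -0.02 (SE 0.07); neither was called (limma, adjusted p = 0.302 and 0.930).

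Surface, matrix and cytoplasmic genes of the mesenchymal or S-type state split. Of 29 measured, 5 rose and 3 fell (27.6% called; median 0.08). ENG, the TGF-beta coreceptor endoglin, averaged 7.48 ± 0.15 in SOD1(G93A) and 6.13 ± 0.10 in wild-type SOD1 arrays (SD, n = 5 each) and rose by 1.35 (SE 0.08). CD9, a tetraspanin, rose by 0.69 (SE 0.10), FN1, fibronectin, by 0.46 (SE 0.06) and VIM, the intermediate filament vimentin, by 0.37 (SE 0.08). TNC, the matrix protein tenascin C, averaged 5.13 ± 0.07 and 6.66 ± 0.18 in the same order of groups and fell by 1.53 (SE 0.09). CDH11, a cadherin of mesenchyme, fell by 0.80 (SE 0.07). CCN1, a matricellular protein, rose by 0.47 (SE 0.10), and IGFBP3, which binds insulin-like growth factors, fell by 0.56 (SE 0.08). Those last 2 were chosen with their values known. With neighbouring sample numbers as a block, the calls of VIM and CCN1 were lost (limma, adjusted p = 0.0523 and 0.0642), leaving 3 higher genes in the list. CDH2, N-cadherin, differed by 0.15 (SE 0.08) and was not called (limma, adjusted p = 0.377).

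Of 17 measured actin-binding contractile genes 1, PDLIM5, a protein that links actinin to kinases, rose by 0.93 (SE 0.09), and 0 fell by limma or the unmoderated model (5 at an unadjusted p under 0.05). The share called was 5.88%. Of 13 measured CD44 ligands, linkers and partners 1, VCAN, the hyaluronan-binding proteoglycan versican, rose by 1.18 (SE 0.07), and 0 fell by limma or the unmoderated model (7 at an unadjusted p under 0.05). That made 7.69% called, against 9.60% of named genes. The ezrin, radixin and moesin genes, whose proteins tie CD44 to actin, were not called. EZR differed by 0.24 (SE 0.07; limma, adjusted p = 0.0643), RDX by -0.35 (SE 0.11; adjusted p = 0.0867) and MSN, dim in both groups, by -0.09 (SE 0.14). RDX was called without SOD1(G93A) sample 15, both EZR and RDX were called among the brighter part of probe sets, and EZR after quantile normalization. HAS2, a hyaluronan synthase, was also dim in both groups. Of 12 TGF-beta inputs, the ligand TGFB3 rose by 0.72 (SE 0.05) and the signal transducer SMAD3 fell by 0.62 (SE 0.09), or 16.7% called.

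**Figure D4:**
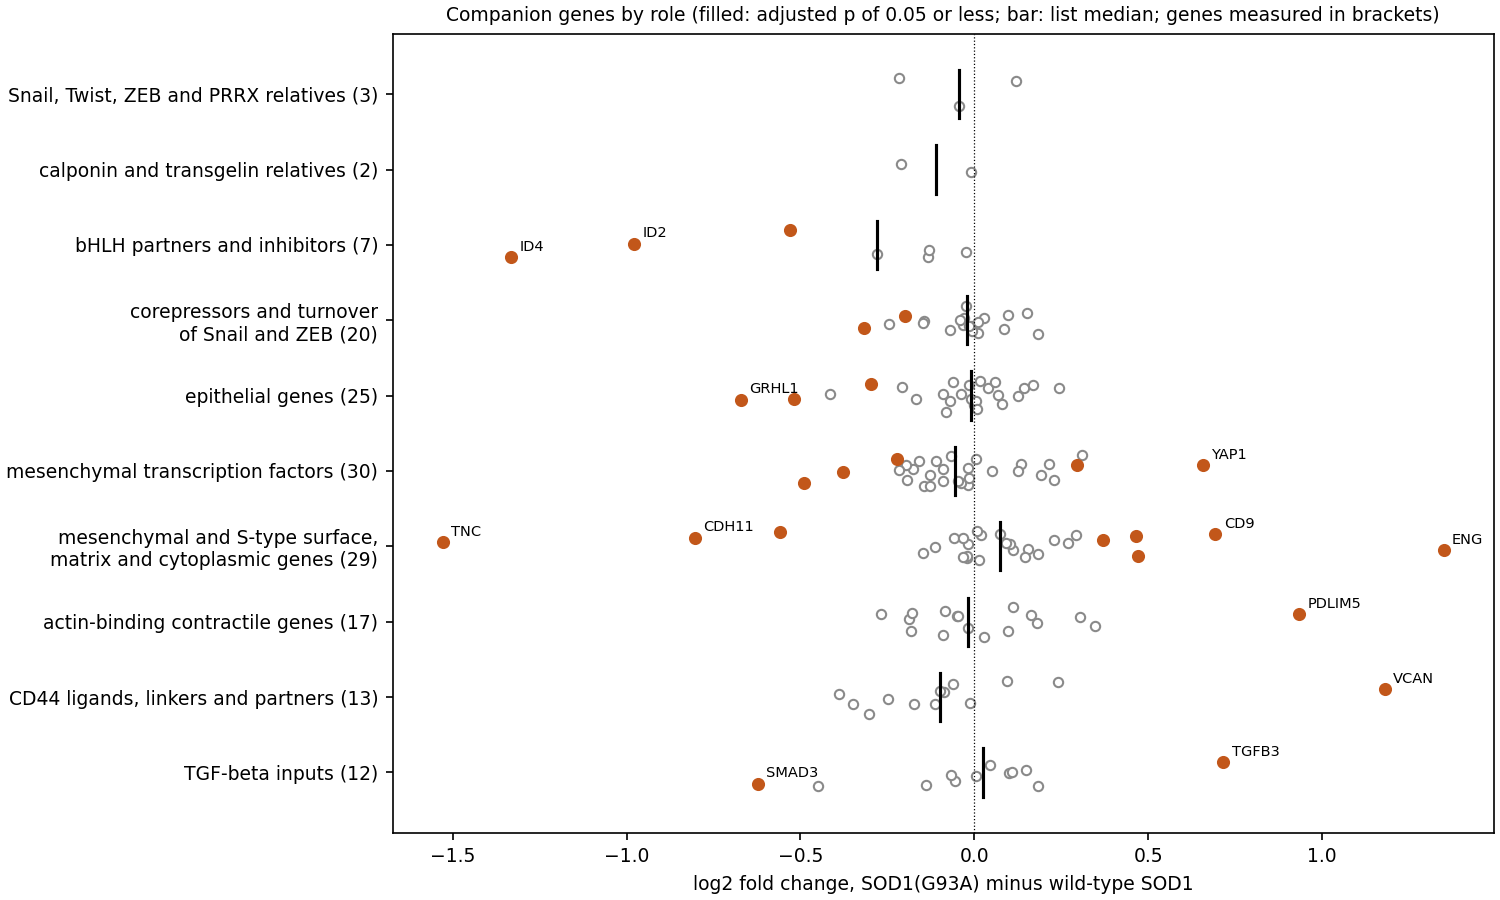
Log2 fold change, SOD1(G93A) minus wild-type SOD1 (x axis), of every measured gene of the 10 lists by role (rows, number measured in brackets), with list medians as black bars. Filled orange points passed an adjusted p of 0.05 by limma, open grey points did not, and called genes beyond 0.6 in size are named; ID2 and ID4 stand at the low end of the bHLH row, and TNC and ENG at the ends of the S-type row.

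Markers of other cell types were read beside these changes. Of 8 measured fibroblast markers, DCN rose by 1.34 (SE 0.10) and FAP, dim in both groups, by 0.43 (SE 0.06), and the list's mean level was 6.01 to 6.06 in SOD1(G93A) arrays and 5.73 to 5.89 in wild-type SOD1 arrays. Of 5 Schwann and melanocyte markers, S100B, dim in wild-type SOD1, rose by 0.73 (SE 0.11) and PMEL fell by 0.41 (SE 0.08), with list means of 4.71 to 4.80 in SOD1(G93A) and 4.62 to 4.68 in wild-type SOD1 arrays. Of 5 smooth muscle and pericyte markers and of 10 immune and endothelial markers, 0 were called by limma or the unmoderated model, and 0 had an unadjusted p under 0.05. Smooth muscle and pericyte markers averaged 6.15 to 6.31 in SOD1(G93A) and 6.15 to 6.27 in wild-type SOD1 arrays. RGS5, at 12.49 and 12.47 in the same order of groups, raised that mean. MYH11, DES, CNN1 and LMOD1 averaged below the array medians in both groups. Immune and endothelial markers averaged 3.65 to 3.68 in SOD1(G93A) and 3.60 to 3.70 in wild-type SOD1 arrays, and PTPRC, LYZ, CD3E, PECAM1 and KDR were below the lower quartile in both groups. CD68, at 6.72 in SOD1(G93A) and 6.64 in wild-type SOD1 arrays, averaged above the array medians. The part of these markers in the changes of the 10 genes was not tested.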

How the data were processed

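RNA of 10 samples was measured on Affymetrix exon arrays after ribosomal RNA depletion, per the labels' protocols. The deposited values are log2 intensities, 1 per gene-level probe set and array; the authors made them with RMA, per the submitters' processing notes, in oneChannelGUI 1.6.5, per the labels. RMA makes array distributions alike, so a shift of all genes would not show. The sources used here give no build or filter.

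Names of probe sets come from the platform annotation, updated to RefSeq symbols by gene identifier: 14432 of 22011 had 1 symbol. Per gene the probe set with the highest mean was used. Groups came from sample titles. limma 3.58.1 in R 4.3.3 (lmFit, eBayes, no covariate, no filter) tested all probe sets, 2-sided, and was tested on simulated data. Within-array pair differences and single genes had exact permutation tests (Python 3.11.15). The number of arrays limits the precision.

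The genes and lists were chosen with earlier results of these data known. Named companion genes were up to 4 called genes per list with the largest change, and defining markers. Alternatives left out each array or samples 17 and 18, or changed the filter, variance model, normalization or block.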

Additional observations from a re-analysis of the deposited data

Results flagged for a closer look

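TWIST1 in SOD1(G93A) sample 9 was 9.50, while the other 4 SOD1(G93A) arrays lay between 9.81 and 9.90. The gap to its nearest neighbour was 0.783 of the group's range, above Dixon's 95% critical value of 0.71 for 5 samples. It was the single such value in 20 groups tested (10 genes in each line), and chance alone flags about 1 in 20.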

How the results depend on the processing

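No gene of the 10 turned its direction past the threshold in 167 recomputed values, of which 149 kept their side of it. Leaving out 1 array gave 0.56 to 0.78 for SNAI1, -0.35 to -0.22 for TWIST1, -0.45 to -0.32 for ZEB2 and 0.14 to 0.19 for CNN3. The count of called genes ran from 3 to 6, that of higher genes from 2 to 4 and that of lower genes from 1 to 3, with 3 called without SOD1(G93A) sample 15. The CNN3 minus TAGLN2 change ran from 0.0725 to 0.16. The unmoderated model left SNAI1 at 0.71 (adjusted p = 0.0525) and ZEB2 at -0.39 (0.0756) uncalled, with 1 lower gene, and called CNN3 at 0.16 (0.0497). Without samples 17 and 18 ZEB2 was -0.45 (0.0507), with 1 lower gene. Quantile normalization called CNN3 at 0.18 (0.0349). With testing limited to the brighter probe sets (above the median mean level), which leave out SNAI1, CD44 and PRRX1, 3 genes were called, 1 higher. Each gene has 1 probe set, so averaging probe sets changes nothing. The groups share no sample number, and the labels state no pairing. With neighbouring numbers as a block (correlation of deviations within such pairs -0.03 to 0.14), ZEB2 at -0.39 was uncalled (limma, adjusted p = 0.0684), and TWIST1 at -0.29 was called (0.0310). The block also ended the calls of VIM (0.0523), ID3 (0.0588), CCN1 (0.0642), KDM1A (0.0672), DDC (0.0742), NR3C1 (0.123), GLI2 (0.131), JUP (0.132) and EZH2 (0.148). It left 3 higher genes in the S-type list, 1 higher mesenchymal transcription factor and 0 lower corepressors by limma, and gave 2 lower TGF-beta inputs. The cause was not tested. For the pairs and the companion genes and lists the alternatives were added after seeing the data: of 1311 companion values, 1200 kept their side or count and 0 reversed.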
